A study of Mus musculus with 2 samples.

Results

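The miR-23, miR-27 and miR-24 microRNAs (miRNAs) of the mouse come from 6 genes in a pair of clusters, and all 6 were found by gene symbol among the 2202 miRNA genes counted in hippocampus. The cluster on chromosome 8 holds Mir23a, Mir27a and Mir24-2. The cluster on chromosome 13 holds Mir23b, Mir27b and Mir24-1. The members were chosen by name and position, not by their counts, though with earlier results of these data known. Small RNAs were sequenced from hippocampus of female B6CASTF1/J mice at 2 months of age, F1 hybrids of C57BL/6J and the castaneus-derived strain CAST/EiJ, with no treatment and no second group. The labels name a layer of hippocampus without saying which, and give 2 biological replicates with 1 donor record between them. Nothing in them ties the libraries to separate animals. The p-values here set the reads of these 2 libraries against counting error alone, and no spread between replicates enters them. A difference between the libraries may be technical.

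A miRNA is cut from a hairpin in a longer primary transcript. Genes of a cluster are commonly cut from 1 transcript, which gives mature strands named 5p and 3p for the hairpin arm they come from. The mature strand guides Argonaute proteins to messenger RNAs that pair with its seed, bases 2 to 8, and those messages are then repressed. The miR-23, miR-27 and miR-24 families are known from work on blood vessels, blood cells and metabolism. miR-23 represses glutaminase, miR-27 acts on lipid metabolism and adipocyte differentiation, and miR-24 acts on the cell cycle and apoptosis.

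The sequences show how far the paired genes can be told apart by a short read, so the 3p arms, for which these families are best known, come first, 5′ to 3′ with the seed in capitals. They are from RefSeq on GRCm38.p6. All 6 hairpins matched, with 10 distinct mature sequences. RefSeq's table here has no entry for miR-23b-3p.
mmu-miR-23a-3p: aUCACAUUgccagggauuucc
mmu-miR-27a-3p: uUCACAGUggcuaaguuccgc
mmu-miR-27b-3p: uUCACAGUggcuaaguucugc
mmu-miR-24-3p: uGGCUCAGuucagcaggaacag
The miR-27 sequences have 1 seed and differ by the single substitution C19U, counted from the 5′ end of miR-27a-3p. miR-23a-3p differs from the closest stretch of the Mir23b hairpin by U19A, counted in the same way. A read that starts with either 3p sequence thus has to be at least 19 bases long to differ between the clusters. miR-24-3p is identical in both genes. Its seed also occurs in miR-5124b, miR-6369, miR-6410 and miR-6413, whose genes had 0 counts in both libraries, which allows levels up to 0.664 and 0.502 CPM in replicates 1 and 2. CPM stands for counts per 1000000 of a library's miRNA counts. No mature sequence of another gene in the table had the seed of miR-23a-3p or of miR-27.

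Of the mature sequences, only the 5p arms differ between the miR-24 genes, shown again with the seed in capitals.
mmu-miR-24-2-5p: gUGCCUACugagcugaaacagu
mmu-miR-24-1-5p: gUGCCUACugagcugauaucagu
These arms agree over 16 bases from the start, so a read needs at least 17 bases to tell Mir24-2 from Mir24-1.

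The hairpins of the pair are shown whole, with the longest stretch that both hold in capitals.
Mir24-2: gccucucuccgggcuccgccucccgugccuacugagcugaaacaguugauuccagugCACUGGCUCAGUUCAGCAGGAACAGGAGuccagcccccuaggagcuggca
Mir24-1: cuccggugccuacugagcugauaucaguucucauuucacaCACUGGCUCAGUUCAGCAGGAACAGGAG
The stretch is 28 bases long and holds all of miR-24-3p. It ends where the Mir24-1 annotation ends. The gene on the other strand, Mir3074-1, reaches further, and against its reverse complement the match with Mir24-2 is 30 bases long.

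The miR-23 and miR-27 pairs hold shorter identical stretches, of 20 bases each. The same marking shows where they lie, and they take in the first 18 bases of miR-23a-3p, miR-27a-3p and miR-27b-3p.
Mir23a: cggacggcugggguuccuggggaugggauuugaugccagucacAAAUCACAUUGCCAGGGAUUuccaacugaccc
Mir23b: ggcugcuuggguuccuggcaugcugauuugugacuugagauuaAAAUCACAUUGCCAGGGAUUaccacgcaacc
Mir27a: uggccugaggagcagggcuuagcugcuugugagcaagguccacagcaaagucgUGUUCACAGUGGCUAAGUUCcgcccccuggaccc
Mir27b: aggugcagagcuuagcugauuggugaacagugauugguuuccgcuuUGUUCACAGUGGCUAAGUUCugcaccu
No 22-base window of Mir23a, Mir23b, Mir27a or Mir27b occurred in a miRNA gene at another locus, on either strand. In Mir24-2, 9 of 86 such windows did, and in Mir24-1, 7 of 47. In each of the miR-23 and miR-27 hairpins, 1 window of 20 bases and 3 of 18 bases were repeated. The search covered the 2202 annotated miRNA genes and not the rest of the genome.

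**Figure D1:**
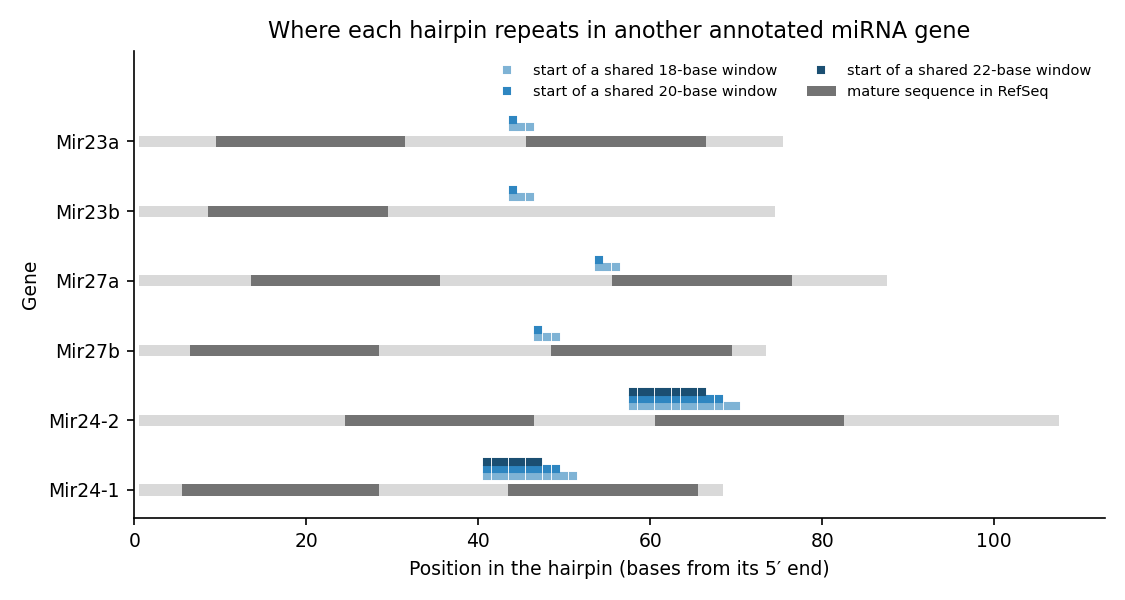
Each hairpin is drawn from its 5′ end (x axis, bases) as a light bar, with the mature sequences that RefSeq lists in dark grey and, above it, squares at the start of every 18, 20 or 22-base window that also occurs in a miRNA gene at another locus. Windows of 22 bases are repeated in Mir24-2 (9) and Mir24-1 (7) and in none of the 4 other hairpins.

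The chromosome 8 genes lie close together, all on the plus strand of mm10. Mir23a (ENSMUSG00000065611.1) spans positions 84208518 to 84208592, Mir27a (ENSMUSG00000065444.1) 84208672 to 84208758 and Mir24-2 (ENSMUSG00000065541.1) 84208815 to 84208921. The gaps between them are 79 and 56 bases and the cluster is 404 bases long. No annotated gene on that strand contains it. The chromosome 13 genes are more widely spaced, over 792 bases, with gaps of 154 and 423 bases. Mir23b (ENSMUSG00000065599.2) spans 63300484 to 63300557, Mir27b (ENSMUSG00000065475.2) 63300712 to 63300784 and Mir24-1 (ENSMUSG00000105904.1) 63301208 to 63301275. All of them lie on the plus strand within the protein-coding gene 2010111I01Rik, also called Aopep, which encodes an aminopeptidase. Mir23b is intronic there, while Mir27b and Mir24-1 overlap exons of some of its annotated transcripts. Fancc, a Fanconi anaemia DNA repair gene, runs on the other strand. Each miR-24 gene also has a miRNA gene on the other strand, Mir3074-2 on chromosome 8 and Mir3074-1 on chromosome 13.

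**Figure D2:**
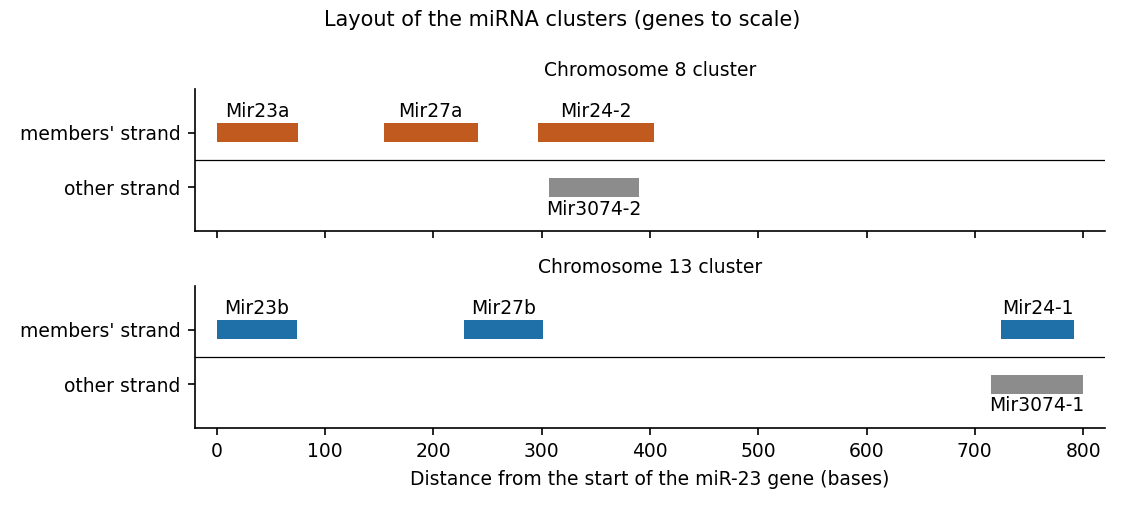
Gene positions are drawn to scale as the distance from the start of the miR-23 gene (x axis, bases), with members in colour and the Mir3074 genes of the other strand in grey. The chromosome 8 genes are packed into 404 bases and the chromosome 13 genes into 792.

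Replicate 1 held 4517648 and replicate 2 held 5979247 sense-strand counts on miRNA genes. Reads that map to several places, 45.9% and 48.4% of all reads, carry no gene in the deposited tables. Intervals cover counting error only and treat amplified reads as separate molecules, which they need not be. As a check of the tissue, the neuron-enriched list of 17 miRNA genes held 4.99% and 5.44% of the counts, with 3 of its 13 tested genes higher in replicate 2, 6 lower and a median log2 ratio of -0.05. Its most abundant genes differed in opposite directions, Mir132 at 16627 and 24242 CPM and Mir128-1 at 13444 and 11179 CPM. The lists of oligodendrocyte and astrocyte-associated miRNAs held 0.653% and 0.698%, and 1.61% and 1.78%. The astrocyte-associated list was 4 Mir29 genes, led by Mir29a at 14765 and 15477 CPM. Whether these shares follow the numbers of such cells was not tested. Of the neural miRNAs, the miR-124 genes were counted near 0, with at most 13 counts in a library. Mir9-3 led the miR-9 genes with 343 and 650 counts. Such counts leave out reads that map to several places, so they do not give the level of all miR-124 or miR-9.

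The clusters together took 3.70% of the miRNA counts in replicate 1 and 3.09% in replicate 2, and the chromosome 13 cluster took the larger part in both. Its share was 2.64% (95% Wilson interval 2.62 to 2.65) and 2.44% (2.43 to 2.46), a mean of 2.54% ± 0.135 (SD, n = 2). The chromosome 8 cluster held 1.07% (1.06 to 1.07) and 0.648% (0.642 to 0.655), a mean of 0.857% ± 0.295. The clusters did not overlap between libraries. With 2 libraries, a permutation test of such a difference cannot give a two-sided p below 0.5, so the comparisons between clusters are given as values with their spread.

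The miR-23 genes were the most abundant members. Mir23b had 109574 counts in replicate 1 and 126632 in replicate 2, which is 24255 and 21179 CPM, and a mean of 22717 ± 2175 CPM (SD, n = 2). Mir23a had 47171 and 37174 counts, 10441 and 6217 CPM, and a mean of 8329 ± 2987 CPM. The lower value of Mir23b was above the higher value of Mir23a. By mean CPM they held ranks 10 and 22 among all miRNA genes, and Mir23a held rank 21 in replicate 1 and rank 34 in replicate 2.

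The miR-27 genes stood lower and further apart. Mir27b had 9363 and 18988 counts, 2073 and 3176 CPM, and a mean of 2624 ± 780 CPM, rank 55. Mir27a had 657 and 1148 counts, 145 and 192 CPM, and a mean of 169 ± 32.9 CPM, rank 179. Both were at their higher value in replicate 2, and every value of Mir27b lay above every value of Mir27a.

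The miR-24 genes were the least counted, with values that crossed. Mir24-2 had 295 and 437 counts, 65.3 and 73.1 CPM, and a mean of 69.2 ± 5.51 CPM, rank 217. Mir24-1 had 101 and 474 counts, 22.4 and 79.3 CPM, and a mean of 50.8 ± 40.2 CPM, rank 236. Mir24-1 was below Mir24-2 in replicate 1 and above it in replicate 2, so their order by mean does not hold beyond the spread. A read lying wholly within the 28 bases that these hairpins have in common occurs in both genes, and the tables give reads that map to several places to no gene. Both levels are therefore counts of the reads that do map to 1 place, not of all miR-24. The tables do not separate the arms.

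Per gene, the order of mean levels was Mir23b, Mir23a, Mir27b, Mir27a, Mir24-2 and Mir24-1. Neighbours in that order did not overlap over the 2 libraries except for the miR-24 genes. The median over the 420 miRNA genes that reached 10 counts in each library was 85.3 CPM, so 4 members lay above it and both miR-24 genes below. In RefSeq, 94 of the counted genes have a mature sequence that is identical in another gene. Among these, 45 had at least 10 counts in both libraries, with a median of 158 CPM, against 331 of 924 genes without such a copy, with a median of 90.5 CPM. The miR-24 genes thus lay below the median of the 45 genes with an identical copy and at least 10 counts. That median leaves out genes with fewer counts, so it does not show what an identical copy does to a count.

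**Figure D3:**
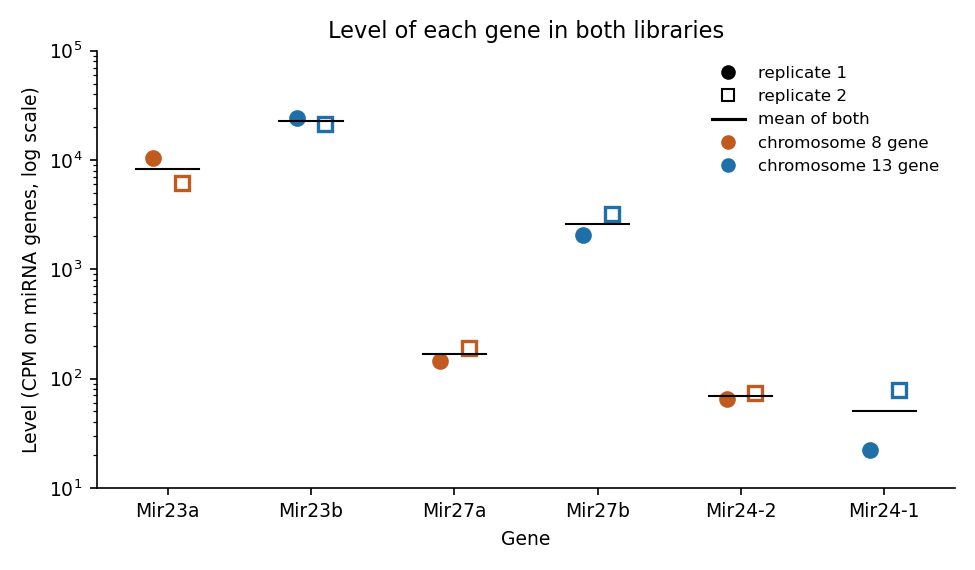
The level of each gene (y axis, CPM on a log scale) is shown as a filled circle for replicate 1, an open square for replicate 2 and a line for their mean, in one colour per cluster. Only the symbols of Mir24-1 (22.4 and 79.3 CPM) straddle those of the gene it is paired with, Mir24-2 (65.3 and 73.1 CPM).

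Compared gene by gene, the chromosome 13 copy was ahead for miR-23 and miR-27 in both libraries, and by much more for miR-27. Mir23b had 2.32-fold the counts of Mir23a in replicate 1 and 3.41-fold in replicate 2, a log2 ratio of counts of 1.22 (95% exact binomial interval 1.20 to 1.23) and 1.77 (1.75 to 1.79). Mir27b had 14.3-fold and 16.5-fold the counts of Mir27a, a log2 ratio of 3.83 (3.72 to 3.95) and 4.05 (3.96 to 4.14). The mean log2 ratios, 1.49 ± 0.391 for miR-23 and 3.94 ± 0.152 for miR-27 (SD, n = 2), were further apart than their spreads. Put as shares, Mir23b supplied 69.9% and 77.3% of the counts of its pair, and Mir27b 93.4% and 94.3%. These shares and ratios, too, hold for reads that map to 1 place.

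For miR-24 the balance was not the same in the libraries. Mir24-1 had fewer counts than Mir24-2 in replicate 1, at a log2 ratio of -1.55 (95% exact binomial interval -1.89 to -1.22). In replicate 2 the log2 ratio was 0.12, with an interval from -0.07 to 0.31 that takes in 0. The mean of -0.71 ± 1.18 was smaller than its spread. Mir24-1 supplied 25.5% of the 396 counts of the pair in replicate 1 (95% Wilson interval 21.5 to 30.0) and 52.0% of the 911 in replicate 2 (48.8 to 55.3). A small RNA read covers an arm and not the gene, so counts were compared per gene. Divided by the length of the annotated genes, which is 107 bases for Mir24-2 and 68 for Mir24-1, the mean log2 ratio was -0.06.

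**Figure D4:**
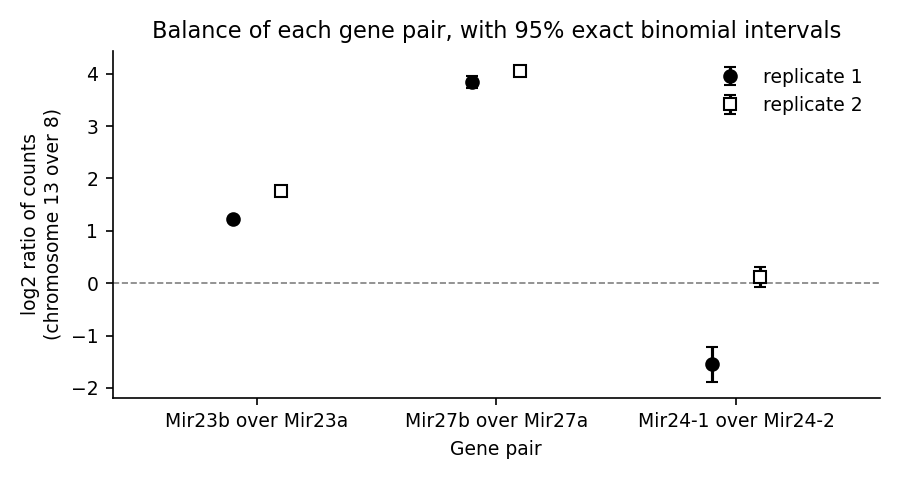
The log2 ratio of counts, chromosome 13 gene over chromosome 8 gene (y axis), is plotted for the 3 pairs in replicate 1 (filled circle) and replicate 2 (open square), with 95% exact binomial intervals that cover counting error only and a dashed line at equal counts. The miR-23 and miR-27 pairs lie above the line in both libraries, while the miR-24 pair lies at -1.55 and 0.12.

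Each of the 3 balances lay further towards chromosome 13 in replicate 2 than in replicate 1, by more than counting error. The difference in log2 ratio was 0.55 for the miR-23 pair (95% interval 0.53 to 0.58), 0.21 for the miR-27 pair (0.07 to 0.36) and 1.66 for the miR-24 pair (1.29 to 2.04). In Fisher's exact test, two-sided and adjusted over the 3 pairs, p was 0.0036 for miR-27 and 3.5e-19 for miR-24, and for miR-23 it was too small for the computer to represent. The test compares these libraries and no condition. No other gene pairs were tested, so how many of them would pass is not known. Of the 420 single genes tested between the libraries below, 56.9% passed.

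Within a cluster the genes were counted at very unequal levels, and the imbalance differed between clusters. On chromosome 8, Mir23a had 71.8-fold the counts of Mir27a in replicate 1 and 32.4-fold in replicate 2. On chromosome 13, Mir23b had 11.7-fold and 6.67-fold the counts of Mir27b. The difference between clusters in that log2 ratio was 2.62 (95% interval 2.50 to 2.73) and 2.28 (2.19 to 2.37), a mean of 2.45 ± 0.239 (SD, n = 2), and so larger than its spread. Mir23a made up 98.0% and 95.9% of the chromosome 8 counts, and Mir23b 92.1% and 86.7% of the chromosome 13 counts. The miR-27 gene took 1.37% and 2.96% on chromosome 8 and 7.87% and 12.997% on chromosome 13.

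The ratio of miR-27 to miR-24 differed between the clusters the other way round. Mir27a had 2.23-fold and 2.63-fold the counts of Mir24-2, whereas Mir27b had 92.7-fold and 40.1-fold the counts of Mir24-1. The log2 ratio on chromosome 8 minus that on chromosome 13 was -5.38 in replicate 1 and -3.93 in replicate 2. Mir24-2 made up 0.613% and 1.13% of its cluster and Mir24-1 0.0848% and 0.324%. These ratios hold for reads that map to 1 place, as above.

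The libraries were then compared over all 420 of these genes, to see which members differed by more than counting error. By Fisher's exact test with Benjamini-Hochberg adjustment at 0.05, 56.9% of the tested genes differed, 27.1% higher and 29.8% lower in replicate 2. Of the 6 members, 5 passed, 3 higher and 2 lower, beside a background in which more than every second gene passes. The members' median log2 ratio between libraries, replicate 2 over replicate 1 and taken on log2(CPM + 0.5), was 0.28, against -0.07 over all tested genes.

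Both miR-23 genes were lower in replicate 2. Mir23a had a log2 ratio of -0.75 (95% interval -0.77 to -0.73), a 1.68-fold difference, and Mir23b one of -0.20 (-0.21 to -0.18), 1.15-fold. The miR-27 genes were higher there, Mir27a at a log2 ratio of 0.40 (0.26 to 0.54; adjusted p = 2.8e-08 by Fisher's exact test) and Mir27b at 0.62 (0.58 to 0.65). Members of 1 cluster thus differed in opposite directions, on both chromosomes.

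Mir24-1 had the largest difference of the members, at a log2 ratio of 1.80 (95% interval 1.51 to 2.15; adjusted p = 1.0e-37 by Fisher's exact test), a 3.49-fold higher level in replicate 2. Only 9 of the 420 tested genes differed by more. Mir24-2 did not pass, with a log2 ratio of 0.16 and an interval from -0.05 to 0.38 (adjusted p = 0.206 by Fisher's exact test). For Mir23b and Mir24-2, 63.8% and 69.8% of the tested genes differed by more, so both differed less than the median tested gene, though Mir23b passed. For Mir23a, Mir27b and Mir27a the share was 17.9%, 24.05% and 41.7%.

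**Figure D5:**
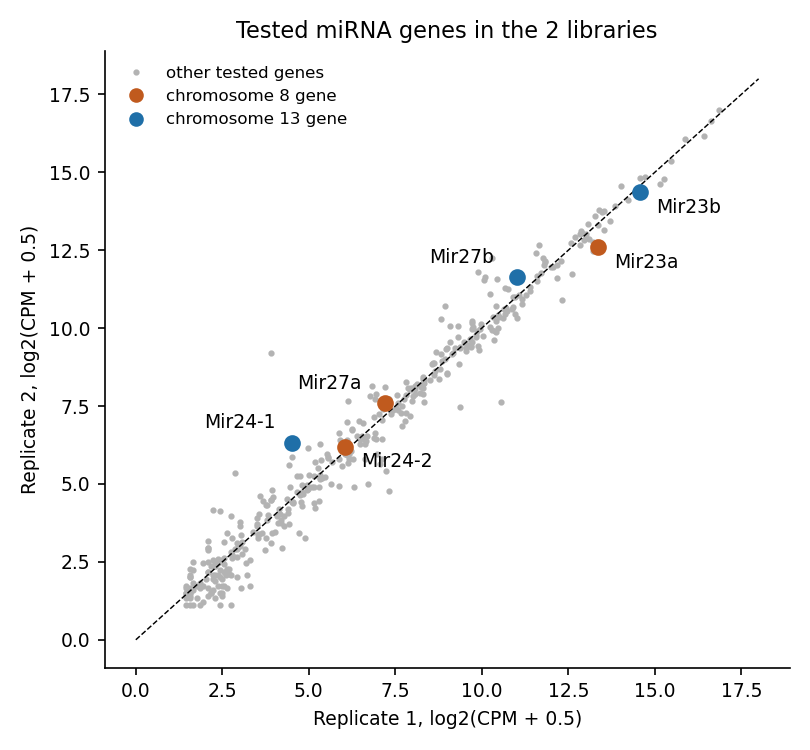
Each point is 1 of the 420 tested miRNA genes, by its level in replicate 1 (x axis) and replicate 2 (y axis), both as log2(CPM + 0.5), with the members in colour and a dashed line at equal levels. Mir24-1 lies farthest from the line among the members (log2 ratio 1.80), Mir23a lies below it (-0.75) and Mir27b above it (0.62).

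Lists of vascular and blood cell miRNAs are set beside these differences, and are to be read against the 56.9% of all tested genes that passed. The endothelial and mural list held 1.92% of the counts in replicate 1 and 2.23% in replicate 2, with 2 of its 3 tested genes higher, none lower and 1 of its 5 genes, Mir126b, at 0 in both. Mir126a of endothelial cells stood at 11285 and 13591 CPM and Mir143 of mural cells at 7618 and 8431 CPM. The third tested gene, Mir145a, went the other way at 320 and 304 CPM, a log2 ratio of -0.08 that did not pass. The myeloid and leukocyte list held 0.176% and 0.207%, with 2 of 5 tested genes higher, none lower and a median log2 ratio of -0.15. Mir150 (1009 and 1115 CPM) and Mir146 (635 and 846 CPM) passed, while Mir142, Mir155 and Mir223 had log2 ratios of -0.21, -0.15 and -0.31 that did not. The part of such cells in the members' differences was not tested. In bulk tissue, fewer cells of a type and less RNA per cell cannot be told apart.

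Strand mattered for the miR-24 genes alone among the members. Mir23a, Mir23b, Mir27a and Mir27b had the same counts in the sense column and in the column without regard to strand. Mir24-2 and Mir24-1 were listed at 0 in the latter in both libraries, as were 25 of the 420 tested genes in all. Both overlap a Mir3074 gene on the other strand, and that column set aside 335206 and 475885 reads as ambiguous. The sense column held reads of both genes, so a 0 there is not a lack of reads. Mir3074-2, at positions 84208825 to 84208907 on the minus strand of chromosome 8, had 0 sense counts in both libraries. Mir3074-1, at 63301199 to 63301283 on the minus strand of chromosome 13, had 28 and 10, which is 6.20 and 1.67 CPM and a log2 ratio of -1.62 (adjusted p = 0.00048 by Fisher's exact test). Mir3074-1 was thus lower in replicate 2, where Mir24-1 on the opposite strand was higher.

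The genes nearest to each member in level over both libraries were named by their distance on the log2 scale, as a description over 2 libraries. Mir676 was nearest to Mir27b, at a distance of 0.05, with 2126 and 3236 CPM, followed by Mir219a-2 at 0.15. Mir345 and Mir29b-2 were nearest to Mir24-2, at 0.10 and 0.21. Mir149 and Mir770 lay nearest to Mir23a, at 0.15 and 0.19. The distance uses the levels of both libraries, so a like ratio between them follows from the choice. Mir27a had Mir496a and Mir488 at 0.18 and 0.20. Mir23b and Mir24-1 had no neighbour that close: Mir125a and Mir99a stood at 0.44 and 0.45 from Mir23b, and Mir6236 and Mir16-2 at 0.46 and 0.49 from Mir24-1.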

How the data were processed

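For each library the authors deposited a separate table of raw read counts on mm10 with GENCODE M21, per the deposited notes. Not given in the sources used here: the aligner, the counter, the trimming, and the mapping of reads with castaneus variants. Each table has count columns without regard to strand, sense and antisense, read from the values. Totals exclude reads without a gene: in the sense column multimapping (45.9% and 48.4%), unmapped (11.8% and 11.2%) and outside genes (3.60% and 3.69%). The members and lists were chosen with earlier results of these data known. Levels are CPM of sense counts on miRNA genes. With 1 group, edgeR's quasi-likelihood test has no contrast. The libraries were therefore compared by two-sided Fisher's exact tests (scipy 1.17.1) with Benjamini-Hochberg adjustment over all 420 genes. In counts made to test it, over 415 genes, it recovered 91% of 200 genes changed 1.5-fold, with 3 unchanged genes called. Those counts were drawn with counting error alone, so they do not show how often it calls genes when libraries differ for other reasons. TMM (edgeR 4.0.16) and DESeq2 1.42.0 size factors were alternatives. Symbols, positions and host genes came from GENCODE M21. All 6 members are named, with the genes on their other strand, seed mates, 2 nearest genes each and up to 3 leading genes of each list. Intervals of differences between log2 ratios are those of the sample odds ratio. Mir126b, Mir9-3 and the miR-124 genes were named after their values were seen.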

Additional observations from a re-analysis of the deposited data

Results flagged for a closer look

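The antisense column, which no comparison used, held counts on 1 member above the 3 that a count of 0 allows. Mir24-1 had 28 antisense counts in replicate 1 and 10 in replicate 2, the same numbers as the sense counts of Mir3074-1 on the other strand. The other members had 0.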

How the results depend on the processing

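In the comparison of the libraries, direction and side of the threshold were unchanged in all 40 values recomputed for the 6 members with other scalings, columns, depths and pseudocounts. The same held for all 5 recomputed for the difference in a pair's balance. Some could not change: a pseudocount does not enter the test, and the miR-23 and miR-27 pairs have the same counts in the column without regard to strand. The number of genes that differed, 239, lay between 200 (a minimum of 100 counts) and 251 (per 1000000 of all reads, a setting chosen for this count after seeing the data). The share of them higher in replicate 2 was 47.7%, 51.7% with TMM, 52.5% with DESeq2 size factors and 38.6% per 1000000 of all reads. Levels depended on the denominator. Per 1000000 of all reads, the mean was 3163 for Mir23a, 8585 for Mir23b, 63.4 for Mir27a, 984 for Mir27b, 26.1 for Mir24-2 and 18.9 for Mir24-1. Without the most abundant gene in the denominator, it was 25926 CPM for Mir23b and 79.0 CPM for Mir24-2. In the column without regard to strand, which sets ambiguous reads aside, Mir24-2 and Mir24-1 were listed at 0, so their pair and library ratios could not be computed there. Divided by gene length, the log2 ratio of Mir27b over Mir27a was 4.19 and that of Mir24-1 over Mir24-2 was -0.06. Leaving out each replicate gave a log2 ratio of Mir24-1 over Mir24-2 from -1.55 to 0.12, which changes sign without replicate 1. It gave 1.22 to 1.77 for Mir23b over Mir23a and 3.83 to 4.05 for Mir27b over Mir27a, and Mir24-1 from 22.4 to 79.3 CPM. A comparison of the libraries cannot leave out 1 of them. The causes were not tested, apart from what each alternative changes by construction.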
